A study of Mus musculus with 2 samples.

Results

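Ccl17, Ccl22 and Ccl5 are secreted chemokines of dendritic cells and macrophages. They are 3 of the 26124 genes counted in single-cell RNA-seq of granulocyte-macrophage colony-stimulating factor (GM-CSF) bone marrow (BM) cultures grown with or without heme, and they were taken by gene name, with earlier results of these data known. Lineage-negative (Lin−) BM cells of C57BL/6 mice aged 8 to 10 weeks were left after magnetic depletion of CD5, CD11b, B220, Gr-1, 7-4 and Ter-119 bearing cells. All cultures received 20 ng/ml GM-CSF, with fresh medium holding 40 ng/ml on day 2. On day 3, cultures received 300 µM heme bound to albumin (heme) or albumin alone (control). The paper describes cultures that were started on different days, so samples of different days also differ by culture dish. Cells taken on days 0, 3, 4, 5 and 7 carried hashtag antibodies and were pooled by treatment. Each treatment was thus 1 library, and the samples of days 0 and 3 preceded the treatment. No difference between the libraries therefore had a replicate check, and every interval given here is a 95% interval for counting error only.

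Ccl17 and Ccl22 are the ligands of Ccr4, a receptor of type 2 helper, regulatory and skin-homing T cells, and they draw those cells to dendritic cells. Ccl5 binds receptors that include Ccr1 and Ccr3 and attracts effector T cells, monocytes and eosinophils. Mature dendritic cells that move from tissue to lymph node carry Ccr7, whereas C1qb, a chain of complement component C1q, is a product of macrophages and monocyte-derived cells. GM-CSF is a known inducer of Ccl17 in monocyte-derived cells, and the transcription factor Irf4 and the histone demethylase Kdm6b have been linked to that induction.

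In the GRCm38 build with GENCODE M21 annotation, Ccl22 (ENSMUSG00000031779) lies on the plus strand of chromosome 8 at 94745590 to 94751699. Ccl17 (ENSMUSG00000031780) follows on the same strand at 94810453 to 94812036, 58754 bp away, with Cx3cl1 (94772009 to 94782427) between them. Ccl5 (ENSMUSG00000035042) lies on the minus strand of chromosome 11 at 83525778 to 83530518, in a cluster with Ccl9 and Ccl6. Ccl22 has 4 annotated exons, and Ccl17 and Ccl5 have 3 each. The 250 bases before the RefSeq start (GRCm38.p6) are shown for Ccl17 and Ccl22. These neighbours for 1 receptor differed in the cell groups that held most of their transcripts, though many cells held both. The Ccl22 window reaches past the annotated gene start at 94745590, so part of it lies inside the annotated gene. The Ccl17 window ends just before its annotated start. The plus strand is given 5′ to 3′, Ccl17 at chr8:94810203-94810452 and Ccl22 at chr8:94745434-94745683, and capitals mark TTCNNNGAA and TTCNNNNGAA, spaced palindromes of the kind STAT factors bind.
Ccl17: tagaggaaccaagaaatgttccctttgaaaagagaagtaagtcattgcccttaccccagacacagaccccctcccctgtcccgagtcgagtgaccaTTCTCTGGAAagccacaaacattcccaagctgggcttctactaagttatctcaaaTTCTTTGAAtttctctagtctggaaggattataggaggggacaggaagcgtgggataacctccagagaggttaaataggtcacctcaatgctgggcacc
Ccl22: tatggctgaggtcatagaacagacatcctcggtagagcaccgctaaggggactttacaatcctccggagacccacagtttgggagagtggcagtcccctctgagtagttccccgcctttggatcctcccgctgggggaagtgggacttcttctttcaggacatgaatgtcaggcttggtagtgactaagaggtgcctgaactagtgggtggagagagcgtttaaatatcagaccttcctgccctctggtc

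The Ccl17 window held TTCNNNNGAA at positions -154 to -145 and TTCNNNGAA at -99 to -91, counted back from the start site, and the matches did not overlap. Among 32851 mouse promoter windows of the same length, 5.85% held the first motif and 7.02% the second on either strand. The Ccl22 window held neither of them. No match to the AP-1 motif TGANTCA, the antioxidant response core TGACNNNGC or the NF-kB motif was found in either window, against 6.75%, 10.2% and 3.90% of all windows. These matches describe letters only, and a missing match says nothing of a factor.

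After the hashtag calls and quality limits, 9684 of 13961 control barcodes and 9941 of 17378 heme barcodes were used, with a median of 11837.5 and 11045 transcript counts (unique molecular identifiers, UMIs) per cell. The 10 culture days held 598 to 2715 cells and 6189203 to 34647365 UMIs each. The limit of 5000 detected genes removed 4.8% to 8.3% of control but 16.4% to 33.9% of heme singlets on days 3 to 7, so values from all singlets, without the limits, are also given for results that they moved. The libraries shared 112 barcodes, 33 of them among the cells used. Levels are CPM (counts per 1000000), a gene's UMIs summed over the named cells, divided by all gene UMIs of those cells. A ratio is the heme level divided by the control level, and the median gene's ratio was 0.22 to 0.29 above 0 on the log2 scale on days 3 to 7.

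Ccl17 was the most abundant of the 3 transcripts in control cultures from day 3 on and the one that differed most between the libraries on days 4, 5 and 7. In control cells Ccl17 stood at 38.0, 518, 1709, 4149 and 5034 CPM on days 0, 3, 4, 5 and 7. In heme cells the Ccl17 levels were 35.3, 502, 482, 585 and 102 CPM in the same order. The libraries were thus close before the treatment. Control levels then climbed, while heme levels within the quality limits stayed near those of day 3 through day 5 and were lower on day 7. Heme Ccl17 without these limits rose before it fell, at 582, 897, 1381 and 244 CPM on days 3, 4, 5 and 7. The Ccl17 ratio was 0.929 (0.792 to 1.09) on day 0, 0.970 (0.949 to 0.992) on day 3, 0.282 (0.277 to 0.288) on day 4 and 0.141 (0.138 to 0.144) on day 5. On day 7 it was 0.0204 (0.0196 to 0.0211), that is 49.1-fold lower with heme. Without the quality limits Ccl17 was 5081 against 244 CPM on day 7, 20.8-fold lower, with ratios of 0.405 and 0.284 on days 4 and 5 and of 1.11 on day 3.

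Ccl22 followed another course, with more transcript in the heme library before the treatment and 1 day after it. Its control levels were 9.69, 40.8, 168, 541 and 638 CPM on days 0, 3, 4, 5 and 7. Its heme levels were 18.0, 84.0, 236, 415 and 82.2 CPM. Heme levels exceeded control through day 4 and fell short of it from day 5. The Ccl22 ratio was 2.06 (1.92 to 2.21) on day 3, 1.40 (1.35 to 1.46) on day 4, 0.767 (0.747 to 0.789) on day 5 and 0.129 (0.123 to 0.135) on day 7, a level 7.76-fold lower. The day 3 ratio was 1.80, under 2-fold, without the quality limits. Because the libraries already differed on day 3, dividing by the day 3 ratio put Ccl22 below control on day 4 as well, at 0.680, and at 0.0625 on day 7.

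Ccl5 was at its lowest on day 3 in both libraries and rose late. Control Ccl5 was 42.0, 8.94, 23.1, 269 and 736 CPM on days 0, 3, 4, 5 and 7, and heme Ccl5 was 52.4, 8.40, 51.4, 224 and 148 CPM. The day 3 levels could not be told apart, with a ratio of 0.940 (0.791 to 1.12). Heme was higher on day 4 at 2.23 (2.02 to 2.45) and lower on day 7 at 0.202 (0.195 to 0.208), 4.96-fold, or at 0.112 and 8.95-fold without the quality limits. The day 5 ratio of 0.831 (0.800 to 0.864) rested on 1 control cell with 2231 Ccl5 UMIs out of 21843, while the next cell had 338. Without that cell the day 5 control level was 183 CPM in place of 269 and the ratio was 1.22 (1.17 to 1.27).

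**Figure D1:**
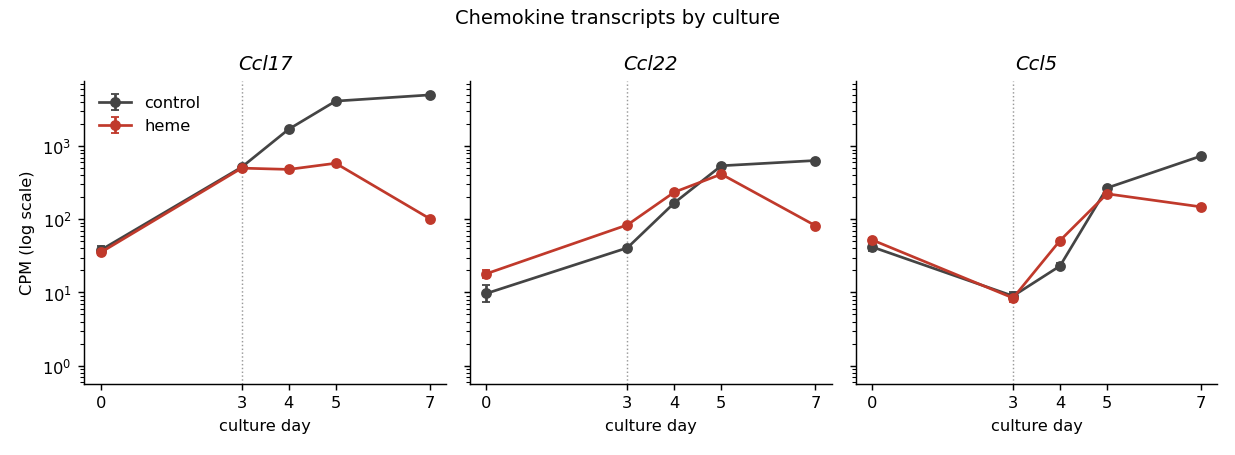
Level of Ccl17, Ccl22 and Ccl5 (CPM, log axis) in all cells of the control and heme library by day of culture, 1 library per treatment, with bars for the exact Poisson 95% interval and a dotted line at day 3, when heme was added. The lines for Ccl17 met on day 3 (518 and 502 CPM) and stood at 5034 and 102 CPM on day 7.

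The highest level of every member was in the day 7 control culture, with Ccl17 first, Ccl5 next and Ccl22 lowest. The 3′ libraries count transcript ends, so these UMI levels need no division by length. Neighbouring cultures in the order of levels mostly differed beyond counting error. The exceptions were Ccl17 on day 0 in both libraries, Ccl22 on day 3 and day 7 with heme, Ccl5 on day 0 and day 4 with heme, and Ccl5 on day 3 in both libraries.

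Counted against all genes with at least 10 CPM in either library, 1 of 3 members (Ccl22) was 2-fold or more higher with heme on day 3, before the treatment, where 3.40% of genes were. On day 4, 1 of 3 was 2-fold higher (Ccl5, against 4.91% of genes) and 1 of 3 lower (Ccl17, against 2.20%). Ccl17 alone was 2-fold lower on day 5, against 2.46% of genes. On day 7 all 3 members were 2-fold lower, against 5.01% of genes.

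Cells were then divided by the markers named above. A cell with 2 or more Ccr7 UMIs was called Ccr7-positive, and of the others a cell with 2 or more C1qb UMIs was called C1qb-positive. The rest were divided into S100a8-high cells, in which the neutrophil alarmins S100a8 and S100a9 made up 5% or more of the UMIs, and remaining cells. On day 7 the control culture held 527 Ccr7-positive, 699 C1qb-positive, 83 S100a8-high and 1406 remaining cells, and the heme culture held 38, 20, 370 and 1584. Ccr7-positive cells were 19.4% (17.9 to 20.9) of control and 1.89% (1.34 to 2.58) of heme cells, while their shares on day 4 were 1.99% and 2.14%. C1qb-positive cells were 25.7% of control and 0.994% of heme cells on day 7.

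On day 7 a list of 16 genes of mature dendritic cells summed to 11447 CPM in control and 16009 CPM in heme Ccr7-positive cells. In remaining cells it summed to 588 and 290 CPM. The list holds Ccr7, by which the cells were picked, and Ccl22 and Ccl5 themselves, so these sums do not name the cells independently. Of the 16 genes, 1 was 2-fold higher and 3 were lower with heme in Ccr7-positive cells, against 23.3% and 5.96% of all genes. The median log2 ratio was 0.40 beside 0.41 over all genes. The actin-bundling gene Fscn1 was at 433 CPM in control and 265 CPM in heme Ccr7-positive cells, the amino acid oxidase Il4i1 at 980 and 331, and the costimulatory marker Cd83 at 280 and 350. The C1qb-positive cells were less alike. Their MHC class II gene H2-Ab1 was at 2931 and 1906 CPM, their lectin Mgl2 at 1193 and 400, and the macrophage scavenger receptor Marco at 1.58 and 1079. The heme-degrading enzyme Hmox1 was at 87.2 CPM in control and 6373 CPM in heme C1qb-positive cells. Of genes with 20 or more UMIs, 0 of 9 MHC class II genes were 2-fold higher and 2 lower with heme. On a conventional dendritic cell list 1 of 7 was higher and 2 were lower. On the macrophage list 7 of 13 were higher and 2 lower. Among all genes 18.9% were 2-fold higher and 9.74% lower. The 20 heme C1qb-positive cells thus differed from control in part of each list.

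Ccl5 and Ccl22 UMIs sat mainly in the Ccr7-positive cells, and Ccl17 UMIs mainly outside them. In the day 7 control culture Ccr7-positive cells held 19.8% of all UMIs but 96.5% of Ccl5, 80.4% of Ccl22 and 14.1% of Ccl17 UMIs. C1qb-positive cells held 48.1% of Ccl17 UMIs there, and remaining cells held 37.8%. In the heme culture the Ccr7-positive cells had 2.10% of all UMIs and still 95.9% of Ccl5, 80.9% of Ccl22 and 43.5% of Ccl17 UMIs. Without the quality limits the heme Ccr7-positive share of Ccl17 was 14.1% and that of Ccl22 was 66.8%, so these 2 shares depended on which heme cells were used. The transcripts were also concentrated in few cells: 50% of the UMIs came from 231 control cells for Ccl17, 116 for Ccl22 and 69 for Ccl5 on day 7, and from 20, 12 and 11 heme cells.

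**Figure D2:**
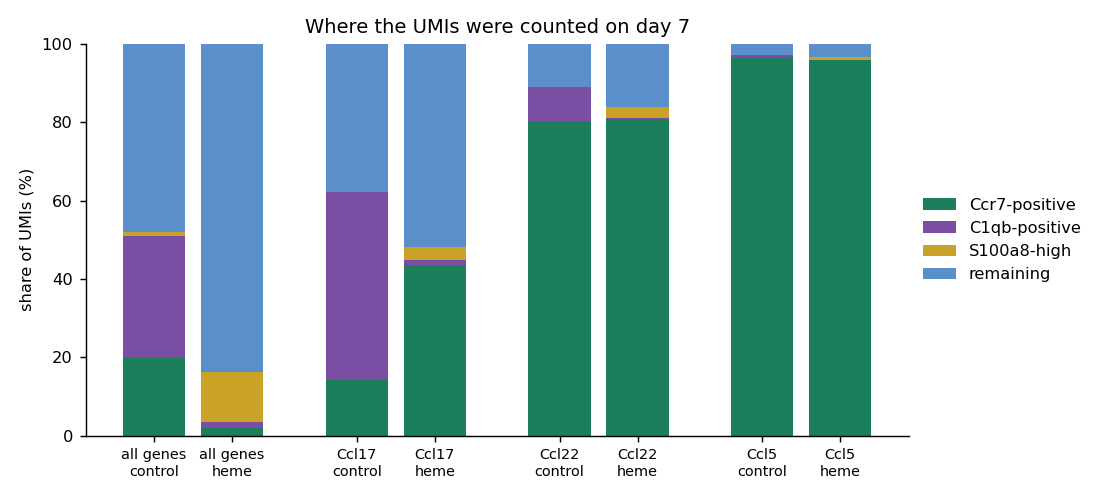
Share of each gene's UMIs (percent, stacked from 0 to 100) that came from Ccr7-positive, C1qb-positive, S100a8-high and remaining cells on day 7, by library, with the share of all gene UMIs in these groups at the left. Ccl5 came almost wholly from Ccr7-positive cells in both libraries (96.5% and 95.9%), while Ccl17 in control came from C1qb-positive (48.1%) and remaining cells (37.8%).

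Within Ccr7-positive cells the day 7 differences were small beside those of the whole culture. Ccl17 in these cells was 3777, 2748, 4543 and 3582 CPM in control and 4880, 2297, 1727 and 2123 CPM in heme on days 3, 4, 5 and 7. The ratio was 1.29 (1.16 to 1.44) on day 3, 0.836 (0.784 to 0.892) on day 4, 0.380 (0.365 to 0.396) on day 5 and 0.593 (0.559 to 0.628) on day 7. All singlets gave a day 4 ratio of 1.02 (0.974 to 1.08), within counting error of 1, and a day 7 ratio of 0.511. The median cell went the other way on day 7, with 1517 CPM in control and 1868 CPM in heme, while the upper quartiles were 3957 and 3110 CPM. The libraries also differed in Ccr7 number, with 20 or more UMIs in 40 of 527 control and 18 of 38 heme cells. At 2 to 4, 5 to 9, 10 to 19 and 20 or more Ccr7 UMIs, control Ccl17 was 6279, 4028, 2906 and 2145 CPM. Heme Ccl17 was 1222, 4041, 2013 and 1839 CPM, from 3, 5, 12 and 18 cells. The part of Ccr7 number in the ratio was not tested. Ccl17 was the only member past 2-fold on day 5 in these cells, where 2.28% of genes were 2-fold lower.

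Ccl22 in cells with 2 or more Ccr7 UMIs differed less between the libraries than in the whole culture on day 7. It was 2960, 3850, 4068 and 2588 CPM in control and 4548, 5774, 4293 and 3172 CPM in heme on days 3, 4, 5 and 7. The day 7 ratio was 1.23 (1.17 to 1.29), but 0.997 without the quality limits, 0.903 without the upper gene limit alone and 0.532 where 1 Ccr7 UMI was enough. The day 5 ratio of 1.06 also turned, to 0.885, without the quality limits.

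Ccl5 rose with time in the Ccr7-positive cells of both libraries. It was 516, 618, 2741 and 3581 CPM in control and 205, 1088, 2472 and 6782 CPM in heme on days 3, 4, 5 and 7, from 11 and 14 cells on day 3. Heme was higher at 1.76 (1.56 to 1.99) on day 4 and 1.89 (1.83 to 1.96) on day 7, with median cells of 1972 CPM in control and 6629 CPM in heme. In all singlets the day 4 ratio was 1.11 (0.991 to 1.25), which does not differ from 1 beyond counting error, and the day 7 ratio was 1.13. The day 7 ratio was 0.824 where 1 Ccr7 UMI was enough to call a cell positive. The day 5 ratio of 0.902 (0.867 to 0.938) turned to 1.34 (1.28 to 1.39) without the control cell of 2231 UMIs. In Ccr7-positive cells on day 7 no member was past 2-fold, where 23.3% of genes were 2-fold higher and 5.96% lower with heme.

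C1qb-positive cells of control cultures held the highest Ccl17 levels of the 4 cell groups and little Ccl22 or Ccl5. Ccl17 was 4432, 9330, 10338 and 7770 CPM in control and 4793, 2511, 3942 and 116 CPM in heme on days 3, 4, 5 and 7. Before the treatment the ratio was 1.08 (1.03 to 1.14), and after it 0.269 (0.250 to 0.290) on day 4, 0.381 (0.359 to 0.405) on day 5 and 0.0149 (0.0107 to 0.0202) on day 7, 67.1-fold lower. The heme values came from 13, 12 and 20 cells, and without the quality limits 54 heme cells gave 1115 against 7500 CPM on day 7, 6.73-fold lower. Ccl22 was 175 and 11.0 CPM and Ccl5 16.8 and 5.52 CPM on day 7 in control and heme, the heme values resting on 4 and 2 UMIs. On day 3 Ccl22 in C1qb-positive cells was already higher in the heme library, at 269 and 828 CPM, or 190 and 249 CPM without the quality limits. Within the limits 1 heme cell held 322 of the 430 Ccl22 UMIs, and 1 control cell held 81 of 181. In these cells 1 of 3 members (Ccl17) was 2-fold lower with heme on day 4, against 11.8% of genes, though its ratio was 0.508 without the quality limits, just short of 2-fold. On day 5, 2 of 3 were lower, Ccl17 and Ccl5, against 11.0% of genes. The Ccl5 value there came from 1 heme UMI and 65 control UMIs, 42 of the latter from 1 cell. On day 7, 3 of 3 were lower, against 9.74% of genes, though the Ccl5 ratio of 0.329 (0.0395 to 1.21) did not differ from 1 beyond counting error. Without the quality limits Ccl22 was 169 and 103 CPM, a ratio of 0.608 that is no longer 2-fold, and the Ccl5 ratio was 0.186 (0.0676 to 0.411). A single heme C1qb-positive cell on day 4 held 125 of the 131 Ccl5 UMIs of its group, with 0 Ccr7 UMIs, and without it Ccl5 there was 21.8 CPM in place of 427.

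Remaining cells repeated the pattern of Ccl17. Its levels there were 713, 3092, 5325 and 3967 CPM in control and 871, 1578, 905 and 63.2 CPM in heme on days 3, 4, 5 and 7, with a day 7 ratio of 0.0159 (0.0151 to 0.0168), 62.7-fold lower. In all singlets Ccl17 was 21.3-fold lower on day 7, and its day 5 ratio was 0.266. Ccl22 was 146 and 15.8 CPM and Ccl5 42.1 and 5.93 CPM on day 7. S100a8-high cells, which should lack these chemokines, held 25.9 to 59.0 CPM Ccl17, 10.8 to 30.5 CPM Ccl22 and 6.41 to 44.4 CPM Ccl5 on days 3 to 7, so heme Ccl22 and Ccl5 in remaining cells were read as background on day 7. The 44.4 CPM Ccl5 of control S100a8-high cells on day 7 rested on 16 UMIs, 9 of them from 1 cell. On days 3 to 5 these cells held 6.86 to 8.31 CPM in control. Control Ccl5 in remaining cells on day 7 came from 700 UMIs, 195 of them from 1 cell. Whether control Ccl5 in remaining and C1qb-positive cells was background could therefore not be told. Heme Ccl22 in C1qb-positive cells was at background with the quality limits (11.0 CPM) but not without them (103 CPM, against 16.8 CPM in heme S100a8-high cells). In remaining cells 2 of 3 members (Ccl17, and Ccl22 at 223 and 60.5 CPM) were 2-fold lower with heme on day 5, against 2.71% of genes. On day 7, 3 of 3 were lower, against 4.49% of genes, with the heme Ccl22 and Ccl5 levels at background.

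**Figure D3:**
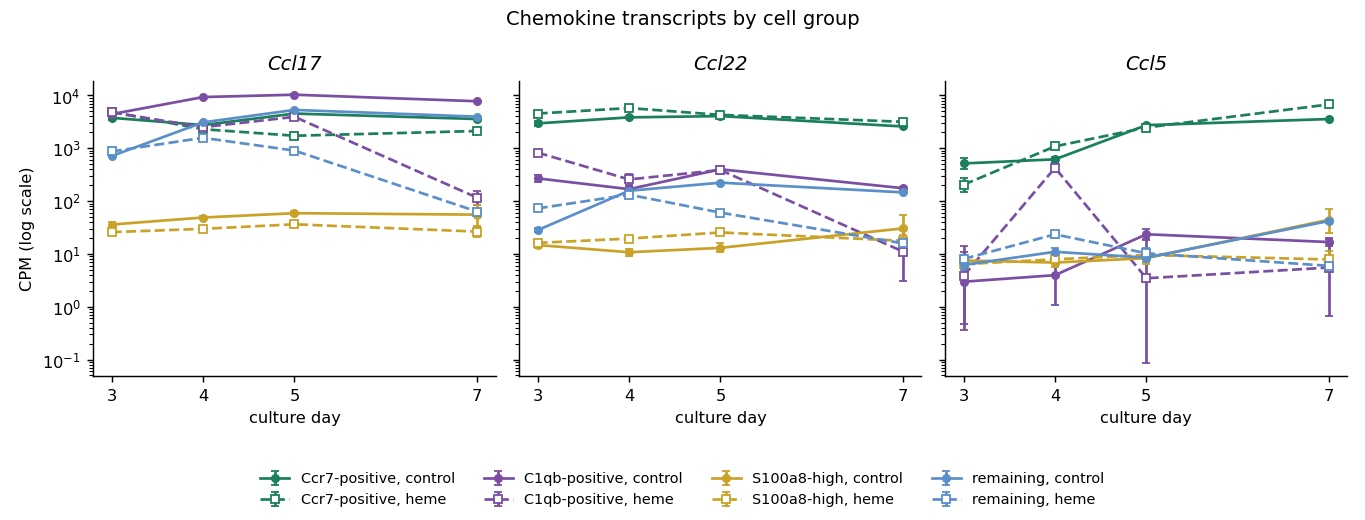
Level of each gene (CPM, log axis) within Ccr7-positive, C1qb-positive, remaining and S100a8-high cells on days 3 to 7, control as filled points and heme as open squares on dashed lines, with exact Poisson 95% intervals. In Ccr7-positive cells the libraries stayed within 2-fold on day 7, whereas Ccl17 in C1qb-positive cells was 7770 CPM in control and 116 CPM in heme.

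The whole-culture difference was divided into a part from the shares of UMIs that the cell groups held and a part from the levels within groups. On day 7 the Ccl17 difference, heme minus control, was -4932 CPM, of which -954 came from the shares and -3978, or 80.7%, from the levels. The Ccl22 difference of -556 CPM was made of -507 from the shares, or 91.1%, and -49.5 from the levels. For Ccl5 the share part was -910 CPM and the level part 323 CPM, which had the other sign. On day 7 most of the Ccl17 difference thus lay in the levels within groups, and most of the Ccl22 and Ccl5 differences in the shares. Of the Ccl17 level part, -2573 CPM came from remaining and -1243 CPM from C1qb-positive cells. Remaining cells of the control culture were uneven, with Ccl17 quartiles of 0, 73.7 and 2593 CPM per cell. A change of cell make-up inside a group would be counted as level, and this was not tested. Where 1 Ccr7 UMI was enough, the part from the levels was 82.9% for Ccl17, 44.9% for Ccl22 and 16.0% for Ccl5, an alternative chosen after the data were seen. Earlier days divided otherwise. On day 4 the levels made up 54.9% of the Ccl17 difference of -1227 CPM, and 80.8% of the Ccl22 difference of 67.5 CPM, while the Ccl5 difference of 28.3 CPM had almost no part from the shares (-0.151 CPM). On day 5 the levels made up 73.2%, 37.6% and 53.6% of the differences for Ccl17, Ccl22 and Ccl5. With heme levels at control shares, the day 7 culture would hold 488 CPM Ccl17, 640 CPM Ccl22 and 1349 CPM Ccl5.

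MHC class II transcripts were lower with heme on day 7 in the same cells, at 10824 and 3371 CPM in remaining cells for the summed list of 9 genes. Cells that were neither Ccr7-positive nor S100a8-high were therefore compared at like shares of MHC class II in their UMIs, a division chosen after the data were seen. In cells with 2% to 4% MHC class II, Ccl17 was 5029, 9870, 11326 and 10544 CPM in control on days 3, 4, 5 and 7, while heme stood at 6407, 6846, 3959 and 785 CPM. The Ccl17 ratio in these cells passed from 1.27 on day 3 through 0.694 and 0.350 to 0.0745 on day 7, 13.4-fold lower, from 449 control and 29 heme cells. At 4% or more the day 7 levels were 13829 and 1840 CPM, 7.52-fold lower, from 167 and 11 cells. From a share of 0.25% upward Ccl17 rose with MHC class II in both libraries on day 7, and in each of the 6 classes of share heme was lower. Without the quality limits the 2% to 4% cells differed 5.73-fold on day 7.

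**Figure D4:**
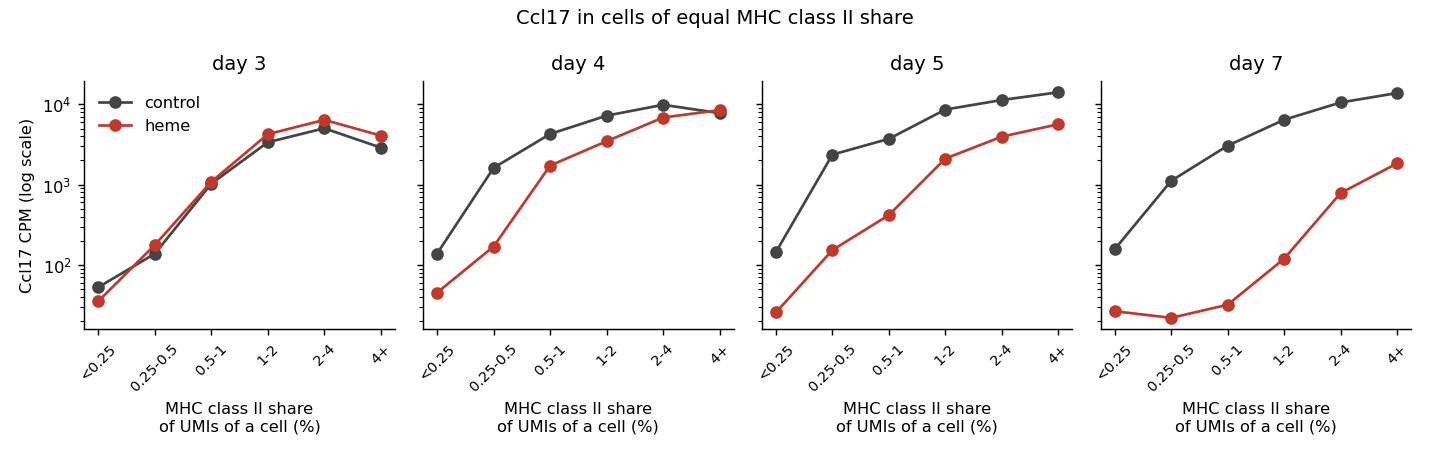
Ccl17 level (CPM, log axis) in cells that were neither Ccr7-positive nor S100a8-high, by the share of their UMIs from 9 MHC class II genes (percent) and by day, 1 point per class of share for control and heme, with no interval drawn. On day 3 the libraries ran together (5029 and 6407 CPM at 2% to 4%), and on day 7 heme was lower at every share.

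Detection per cell was compared after thinning every cell to 3000 UMIs, leaving out shallower cells. On day 7, 77.1% (73.3 to 80.7) of 525 control Ccr7-positive cells and 97.4% (86.2 to 99.9) of 38 heme Ccr7-positive cells held a Ccl5 UMI, and unthinned the shares were 85.0% and 97.4% at median depths of 11773 and 13956.5 UMIs. Ccl22 was detected in 97.0% and 97.4% of the same cells after thinning. S100a8-high cells gave background shares of 6.67% and 2.41% for Ccl5 and of 13.3% and 7.53% for Ccl17 in control and heme. Ccl17 was detected in 79.7% of 694 control and 15.0% of 20 heme C1qb-positive cells, and in 43.7% and 8.01% of remaining cells, where the heme share stood near its background. All 3 transcripts were found together in 62.3% of control and 89.5% of heme Ccr7-positive cells. In control C1qb-positive cells the usual state was Ccl17 alone, in 62.7%.

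The balance between members within a Ccr7-positive cell moved toward Ccl5 with time. More Ccl5 than Ccl17 UMIs were counted in 18.2%, 14.3%, 34.6% and 53.3% of control Ccr7-positive cells on days 3, 4, 5 and 7. The heme shares were 14.3%, 35.8%, 58.2% and 89.5%. Cells with more Ccl5 than Ccl17 were thus more frequent with heme on days 5 and 7, and not on day 3, when 11 and 14 cells were counted. On day 4 the intervals overlapped, at 5.43% to 28.5% of 42 control and 23.1% to 50.2% of 53 heme cells. These shares were counted within the quality limits only.

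The members also differed in how they followed the number of Ccr7 UMIs in a cell. In the day 7 control culture Ccl5 was 21.1 CPM in cells with 0 Ccr7 UMIs, 380 with 1, 1675 with 2 to 4, 2916 with 5 to 9, 4445 with 10 to 19 and 3979 with 20 or more. Ccl22 over the same classes was 147, 505, 2048, 2664, 2528 and 3226 CPM. Ccl17 was 5484, 4736, 6279, 4028, 2906 and 2145 CPM. Ccl5 and Ccl22 thus rose with Ccr7, and Ccl17 was lowest where Ccr7 was highest. In the heme culture 51 cells with 1 Ccr7 UMI held 13.5 CPM Ccl5, close to background, and the 18 cells with 20 or more held 7525 CPM. Cells with 1 Ccr7 UMI therefore differed between the libraries, and adding them to the Ccr7-positive cells moved the day 7 ratios to 0.229 for Ccl17, 0.532 for Ccl22 and 0.824 for Ccl5.

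**Figure D5:**
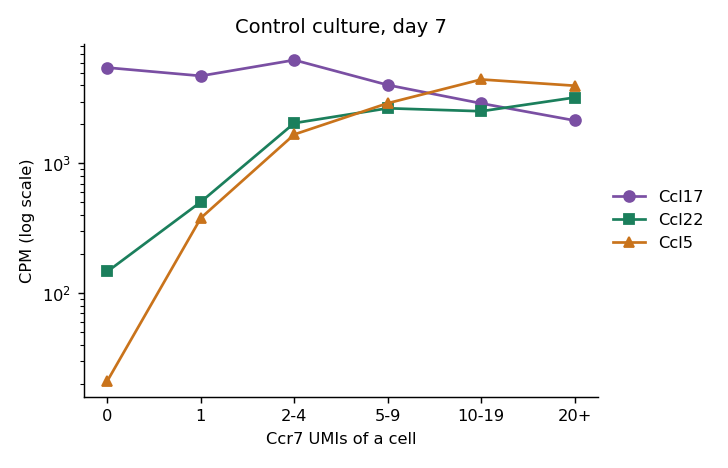
Level of each gene (CPM, log axis) by the number of Ccr7 UMIs in a cell of the day 7 control culture, 1 point per class, with no interval drawn. Ccl5 rose from 21.1 CPM at 0 Ccr7 UMIs to 3979 CPM at 20 or more, whereas Ccl17 was lower at 20 or more (2145 CPM) than at 0 (5484 CPM).

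Ccl5 on day 0 came from other cells than on day 7. Cells with 5 or more Ccl5 UMIs were 11 of 598 in control and 39 of 1366 in heme on day 0, and they held 81.9% and 82.3% of all Ccl5 UMIs. A transcript of the T and natural killer cell list without Nkg7 was counted in 11 of the 11 and 31 of the 39, against 5.62% and 5.73% of the other day 0 cells. The interleukin receptor chain Il2rb was counted in 10 and 34 of them, and the day 0 level without these cells was 7.62 and 9.33 CPM. On day 7, 93.2% of 409 control cells and 35 of 35 heme cells with 5 or more Ccl5 UMIs were Ccr7-positive. A transcript of the same T and natural killer cell list was counted in 12.5% of the 409 control cells, against 5.59% of the other control cells. In the heme library 0 of the 35 held one, with a rough upper bound of 8.57%, taken as 3 divided by the number of cells. The list summed to 17.2 CPM in control Ccr7-positive cells, 8.34 in C1qb-positive and 9.62 in remaining cells on day 7, and its part in the Ccl5 level was not tested.

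Receptors of the 3 ligands were sparse or differed little between the libraries on day 7. Ccr4, the receptor of Ccl17 and Ccl22, had 10 control and 6 heme UMIs (0.289 and 0.223 CPM), and Ccr3, Ackr1 and Ackr2 had 0 to 3 UMIs in each library. Ccr1, a receptor of Ccl5, was at 198 CPM in control and 228 CPM in heme. Ccrl2, a receptor without signal of its own, was 2-fold lower with heme, at 8.28 and 3.23 CPM.

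Among 22 genes of GM-CSF signal and of regulators of the members, all with 20 or more UMIs, 0 were 2-fold higher and 8 were lower with heme on day 7, against 12.5% and 5.01% of all genes, with a median log2 ratio of -0.44 beside 0.29 over all genes. On day 4, 0 of the 22 were past 2-fold in either direction, against 4.91% and 2.20% of all genes. Irf4, which binds with other factors at GM-CSF driven genes, was 91.9 and 22.7 CPM in all cells, a ratio of 0.247. In Ccr7-positive cells Irf4 was higher with heme, at 106 and 172 CPM, so its order between the libraries differed by cell group. Relb, an NF-kB subunit of mature dendritic cells, was 61.1 and 23.3 CPM, and Irf8, a factor of dendritic cell and monocyte development, 159 and 58.1 CPM. The chains of the GM-CSF receptor were not 2-fold lower, with Csf2ra at 118 and 150 CPM and Csf2rb at 725 and 691 CPM, but its kinase Jak2 was at 180 and 76.3 CPM. The others past 2-fold lower were Rel, Batf3, Dpp4 and Socs2, which are named with Jak2 because of their values. In Ccr7-positive cells Jak2 was 418 and 805 CPM and Irf8 569 and 165 CPM, so these regulators did not share a direction there. Stat6, the interleukin-4 signal transducer, was 49.8 and 83.5 CPM, and Kdm6b 17.8 and 31.2 CPM.

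Of 24 other chemokines on a list 22 were measured, and of the 15 with 20 or more UMIs on day 7, 0 were 2-fold higher and 6 were lower with heme, against 12.5% and 5.01% of all genes, with a median log2 ratio of -0.54 beside 0.29. Cx3cl1, the fractalkine gene between Ccl22 and Ccl17, had the lowest ratio, at 10.2 and 1.11 CPM in all cells, but in Ccr7-positive cells it was 35.5 and 37.2 CPM. Cxcl16, a scavenger receptor and ligand of Cxcr6, was 141 and 27.5 CPM in all cells and 410 and 205 CPM in Ccr7-positive cells. Ccl4, an inflammatory chemokine of macrophages, was 492 and 158 CPM, and the monocyte attractant Ccl12 was 3.12 and 1.00 CPM. Cx3cl1 thus resembled Ccl22 more than Ccl17 in its split by cell group, with a lower level in the whole culture and a like level in Ccr7-positive cells.

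Genes with the most like pattern were named by Pearson's r of log levels, given as a description. Over the 10 cultures, which share libraries and depth, Ccl17 was nearest to the Fc receptor Fcgr1 (r = 0.977), Cd52, Ptx3, Ifitm3 and Bcl2a1d (0.959). Ccl22 was nearest to Dcstamp (0.985), the checkpoint ligand Pdcd1lg2, Relb, Nr4a3 and Fscn1 (0.966), and Ccl5 to the receptor chain Il7r (0.969), B2m, Slamf7, Stxbp3 and Epsti1 (0.944). Over 2715 cells of the day 7 control culture, which share 1 library, Ccl17 was nearest to the MHC class II genes H2-Ab1 (0.761), H2-Eb1, Cd74 and H2-Aa, and to Cst3 (0.728). Over the same cells Ccl22 was nearest to Il4i1 (0.835), Ccr7 (0.817), Pkib, Cd83 and Nudt17 (0.733), and Ccl5 to Ccr7 (0.820), Cacnb3, Pkib, Tmem123 and Fscn1 (0.704). Between members r was 0.664 for Ccl22 and Ccl5, 0.319 for Ccl17 and Ccl22 and 0.036 for Ccl17 and Ccl5, so over these cells Ccl22 was nearer to Ccl5 than to its neighbour on chromosome 8. Over the 10 cultures the order was the other way, with 0.866 for Ccl22 and Ccl17, 0.665 for Ccl22 and Ccl5 and 0.404 for Ccl17 and Ccl5.

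Other transcripts also differed between the libraries. In the heme remaining cells of day 7 Hmox1 was 5955 CPM against 118 in control. The 20 heme C1qb-positive cells held 10884 CPM of the macrophage list against 2003, and 3222 CPM of the erythroid list against 46.1. The erythroid list did not rise alike elsewhere, at 269 CPM in control and 146 CPM in heme remaining cells. It was 85.5 and 72.5 CPM in Ccr7-positive cells and 162 and 213 CPM in all cells. In Ccr7-positive cells the macrophage list stood at 327 and 1046 CPM and the list of T and natural killer genes at 17.2 and 3.54 CPM, with Cd3e, Gzma and Ncr1 at 0. The part of these transcripts in the chemokine levels was not tested, and with 1 library per treatment the treatment and the library cannot be told apart.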

How the data were processed

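Single-cell transcript counts of 1 control and 1 heme library were used. The authors deposited raw UMI counts per gene and barcode, made with Cell Ranger (4.0.0 in the processing notes, 5.0.0 in the matrix header) on GRCm38.p6, and hashtag calls from Seurat 3.2.3. Calls of Doublet and Negative were left out of the cultures, and no other doublet caller was run. Following the methods of the study, Singlet barcodes with 500 to 5000 detected genes, under 15% mitochondrial and under 30% ribosomal protein UMIs were used. The design text gives exposure times and the labels give days of harvest, and the days are used here.

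UMIs were summed by library, day and cell group with Python 3.11.15, numpy 2.4.6, pandas 2.3.3 and scipy 1.17.1, and divided by all gene UMIs of the same cells (CPM). Intervals at 95% were exact Poisson for levels, exact conditional binomial for ratios and Clopper-Pearson for shares, and they cover counting error only. No p-value was computed, since each group was 1 library. The ratio step was tested on simulated data. The text names all 3 members, the listed receptors except 1 that is not reported here, 7 preset regulators, the 4 other chemokines with the largest day 7 change and the 5 most alike genes per member. Likeness was Pearson's r of log2(CPM + 10) over cultures, for genes of 50 CPM or more in 1 culture, and of log counts scaled to 10000 over cells. The members, cell groups and lists were chosen with earlier results of these data known. edgeR 4.0.16 and DESeq2 1.42.0 in R 4.3.3 gave other scaling factors only. Alternatives also covered the cell limits, the Ccr7 and C1qb thresholds, means per cell, subtraction of day 0 and division by day 3.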

Additional observations from a re-analysis of the deposited data

Results flagged for a closer look

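The ratio of heme to control pointed in opposite directions between days or cell groups for 6 pairs of values. With 1 library per treatment none of these differences was tested. In all cells the Ccl22 ratio was 1.40 on day 4 and 0.129 on day 7, and the Ccl5 ratio was 2.23 and 0.202. On day 7 Ccl22 was at 1.23 in Ccr7-positive and 0.108 in remaining cells, and Ccl5 at 1.89 and 0.141. The heme levels in remaining cells were at background, and whether the control Ccl5 level there was could not be told. Where 1 Ccr7 UMI was enough the Ccr7-positive ratios were 0.532 and 0.824, so the directions were no longer opposite. The Ccl17 ratio in C1qb-positive cells was 1.08 on day 3, before heme, and 0.0149 on day 7, and in Ccr7-positive cells 1.29 and 0.593.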

How the results depend on the processing

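Of 203 alternative values of the ratios, 186 kept their direction and 17 did not. On day 7 in all cells the 3 members were 2-fold lower in 24 of 24. The Ccl17 ratio there (0.0204) was 0.0480 in all Singlets, 0.0468 without the upper gene limit (chosen after the data were seen), 0.0173 with TMM, 0.0170 with DESeq2 factors, 0.0226 as a mean per cell and 0.0134 with day 0 subtracted. In the same order, leaving out the mean per cell, Ccl22 (0.129) was 0.115, 0.107, 0.110, 0.108 and 0.102, and it was 0.0625 divided by day 3. Ccl5 (0.202) was 0.112, 0.128, 0.171, 0.168, 0.160 and 0.138, then 0.215 divided by day 3 and 0.163 without the ribosomal limit (chosen after the data were seen, as were the other values without that limit).

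In Ccr7-positive cells on day 7 Ccl17 (0.593) was 0.511 in all Singlets, 0.629 per cell, 0.229 with 1 Ccr7 UMI, 0.684 with 5 and 0.507 without the upper limit. Ccl22 (1.23) was 0.997, 0.532 with 1 UMI, 1.29 without the ribosomal and 0.903 without the upper limit. Ccl5 (1.89) was 1.13, 1.63 per cell, 0.824 with 1 UMI, 1.60 and 1.30. Ccl17 in C1qb-positive cells (0.0149) was 0.149 in all Singlets, 0.0104 with day 0 subtracted, 0.0314 with 1 and 0.0304 with 5 C1qb UMIs, and 0.148 without the upper limit. On day 5 Ccl5 there (0.147) reversed to 1.23 with 5 C1qb UMIs.

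With all Singlets, 1 or 5 UMIs in turn, the control shares of UMIs in Ccr7-positive cells were 13.9%, 16.4% and 11.1% for Ccl17, and 82.4% and 72.7% with 1 and 5 UMIs for Ccl22, and 96.8%, 97.8% and 91.0% for Ccl5. The heme shares were 14.1% in Singlets and 41.5% with 5 UMIs for Ccl17, 66.8% in Singlets for Ccl22, and 94.2% and 92.9% for Ccl5. The Ccl17 share in C1qb-positive cells was 49.5%, 57.5% and 31.8% in control, and 16.1% and 7.42% in heme with Singlets and 1 UMI. Unthinned, 86.3% of control and 50% of heme C1qb-positive cells held Ccl17, and 99.4% and 85.0% of control Ccr7-positive cells held Ccl22 and Ccl5. At 1 CPM, 1719 genes were higher and 824 lower on day 7, against 1024 and 410 at 10 CPM. The causes of these shifts were not tested. No paired analysis was possible because each group was 1 library.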

Other observations

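Barcodes that the hashtag calls left out held the members too, in levels over all days together. Doublet barcodes held 2919 CPM Ccl17, 325 CPM Ccl22 and 223 CPM Ccl5 in control, and 675, 175 and 61.0 CPM in heme. Negative barcodes held 801, 99.3 and 156 CPM in control, and 151, 71.6 and 10.9 CPM in heme.

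Among the regulators, Dpp4, a surface protease that trims chemokines, was at 21.8 CPM in control and 0.89 CPM in heme on day 7, and it is named because of its values. In cells below 2 Ccr7 UMIs with 2% to 4% MHC class II, Ccl22 was 49.4 CPM in control and 415 CPM in heme on day 3, before heme, and 241 and 13.3 CPM on day 7, the last from 7 UMIs. Without the quality limits these levels were 42.6 and 183 CPM on day 3 and 231 and 149 CPM on day 7, so the day 7 difference rested mostly on which heme cells were used.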
